A study of Mus musculus with 13 samples.

Results

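The 9 genes described here, P2ry12, P2ry13, Gpr34, Cx3cr1, Csf1r, Tmem119, Siglech, Fcrls and Sall1, are known as genes of homeostatic microglia, the resident macrophages of the brain in their surveying state. They were taken by symbol from the gene count tables of mouse CA1 tissue, in which all 9 were found among 55291 symbols. RNA was sequenced from 13 wildtype C57BL/6 (C57BL/6J in the culture protocol) organotypic entorhino-hippocampal tissue cultures that were prepared at postnatal day 4 or 5 and kept for at least 18 days in vitro: 5 non-lesioned controls, 4 cultures after Schaffer collateral lesion (SCL), which cuts the axons running from CA3 to CA1, and 4 after entorhinal cortex lesion (ECL), which cuts the perforant path. Tissue was taken 3 days after the lesion, 1 isolate per culture, and the sex written in the table headings was male for 2 of 5 control, 1 of 4 SCL and 3 of 4 ECL cultures. The labels and the methods of the study name CA1, while the extraction protocol in the labels names the dentate gyrus. Of the CA1 neuron markers, 6 of 6 passed the minimum used here (a mean normalised read count of at least 150) against 2 of 6 dentate granule cell markers. Of these Calb1, which CA1 neurons also express, was at 46.1 to 156 CPM (counts scaled to a library total of 1000000) and Prox1 at 10.4 to 19.5 CPM over all libraries, and the other 4 were at most at 4.09 CPM. A tissue culture has no blood supply, and cultures rather than mice are the replicates.

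Microglia read their surroundings through such genes. P2ry12 and P2ry13 encode receptors for ADP, which damaged cells release, and P2RY12 is needed for microglial processes to extend towards it. Gpr34 encodes a receptor for lysophosphatidylserine. Cx3cr1 encodes the receptor for the neuronal chemokine fractalkine, and Csf1r the receptor for CSF1 and IL-34 on which microglia depend for survival. Tmem119 encodes a membrane protein used as a microglia marker, Siglech a sialic acid-binding lectin, and Fcrls a scavenger receptor-like protein of the Fc receptor family. Sall1 encodes a transcription factor that maintains microglial identity. As a group these genes are known to be reduced in microglia that take on a disease-associated or phagocytic state.

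On GRCm38, P2ry13 (chr3:59207892-59210882, minus strand) and P2ry12 (chr3:59216272-59262871, minus strand) are neighbours, and both lie inside the gene Med12l, which is read from the opposite strand. P2ry12 shares 9 exon bases with Med12l and P2ry13 shares 0. Gpr34 (chrX:13632089-13640858, plus strand) lies inside Cask, also on the opposite strand, and shares 0 exon bases with another gene. Fcrls (chr3:87250758-87263738), Siglech (chr7:55768178-55778925), Tmem119 (chr5:113793729-113800516) and Sall1 (chr8:89027235-89044162) lie outside other genes and also share 0 exon bases. Cx3cr1 (chr9:119901616-120069879) shares 1.73% of its exon bases with the predicted gene Gm33858. Csf1r shares 15.1% of its exon bases with Hmgxb3, and reads that lie within those bases cannot be assigned to either gene alone. Whether such reads entered the count of Csf1r was not tested. Reads were counted without regard to strand. For 8 of the 9 genes every stretch of 100 exon bases occurred in no other annotated transcript, and for Csf1r 86.5% of them did.

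RefSeq promoter windows, 250 bases before to 50 bases after the start of transcription on GRCm38.p6, were found for 6 of the 9 genes, and those for Tmem119, Csf1r and Gpr34 were not used here. A set of 4 windows is shown because they place the neighbours P2ry12 and P2ry13, which varied together between libraries, beside Fcrls, which was higher after both lesions, and Siglech, which was not called after either. Capitals mark GAGGAA, the core of the sequence bound by the myeloid factor PU.1, or its reverse complement TTCCTC, searched on both strands.
P2ry13, chr3:59210833-59211132, minus strand: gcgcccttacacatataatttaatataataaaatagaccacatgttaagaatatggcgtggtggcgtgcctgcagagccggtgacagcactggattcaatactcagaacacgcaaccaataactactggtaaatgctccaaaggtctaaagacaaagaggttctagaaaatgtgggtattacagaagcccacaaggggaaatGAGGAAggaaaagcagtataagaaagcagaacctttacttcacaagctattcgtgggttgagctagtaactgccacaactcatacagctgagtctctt
P2ry12, chr3:59262936-59263235, minus strand: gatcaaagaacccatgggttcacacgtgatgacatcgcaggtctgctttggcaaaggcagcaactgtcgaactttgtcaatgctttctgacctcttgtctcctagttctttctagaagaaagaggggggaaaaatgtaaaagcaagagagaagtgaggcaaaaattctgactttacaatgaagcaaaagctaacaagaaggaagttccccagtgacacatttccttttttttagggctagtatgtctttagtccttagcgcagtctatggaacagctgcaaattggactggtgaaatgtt
Fcrls, chr3:87263475-87263774, minus strand: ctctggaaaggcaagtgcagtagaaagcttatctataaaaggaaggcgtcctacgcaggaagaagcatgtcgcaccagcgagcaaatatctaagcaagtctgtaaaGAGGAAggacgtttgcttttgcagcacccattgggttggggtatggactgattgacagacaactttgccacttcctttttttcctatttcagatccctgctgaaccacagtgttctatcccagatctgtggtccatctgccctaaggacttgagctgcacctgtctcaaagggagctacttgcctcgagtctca
Siglech, chr7:55767934-55768233, plus strand: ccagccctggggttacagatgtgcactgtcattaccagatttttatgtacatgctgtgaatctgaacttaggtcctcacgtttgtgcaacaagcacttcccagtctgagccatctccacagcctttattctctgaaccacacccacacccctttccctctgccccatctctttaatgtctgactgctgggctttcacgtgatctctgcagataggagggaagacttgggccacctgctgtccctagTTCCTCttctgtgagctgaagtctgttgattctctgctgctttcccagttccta
These letters were present in the windows of P2ry13, Fcrls and Siglech, 48, 144 and 4 bases before the start in that order, and absent from those of P2ry12, Cx3cr1 and Sall1. Of all 32851 windows in the table, 28.3% held them, so their presence did not set the genes apart. A match describes the letters and is not evidence of binding.

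All 9 genes passed the minimum in all 3 comparisons. Raw counts ran from 68 (P2ry13, control replicate 5) to 5508 (Fcrls, SCL replicate 2), in libraries that held 14371152 to 56786613 counts in total. Depth differed between the groups. Totals were 14371152 to 21092612 in the controls, 16405517 to 56786613 after SCL and 20210165 to 46449937 after ECL. Levels are given as CPM, scaled with TMM factors over all 13 libraries, and per kilobase of merged exon where genes are compared with each other. Per kilobase and over the 13 libraries, Fcrls had the highest median level (29.7 CPM per kilobase), followed by Gpr34 (17.1), Cx3cr1 (15.2), P2ry12 (10.6), Csf1r (9.69), Tmem119 (6.34), Siglech (4.80), P2ry13 (4.25) and Sall1 (3.82). In the controls each gene's range overlapped that of its next lower neighbour, so the order is not resolved there beyond the spread between cultures. After SCL, Csf1r (11.3 to 15.1 CPM per kilobase) stood clear of Tmem119 (6.34 to 9.13), and Tmem119 stood clear of Sall1 (4.15 to 6.03). After ECL, Fcrls (29.5 to 34.3 CPM per kilobase) stood clear of Gpr34 (10.1 to 25.1), and Csf1r of Tmem119. Siglech was seventh of the 9 in the controls and last after SCL.

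**Figure D1:**
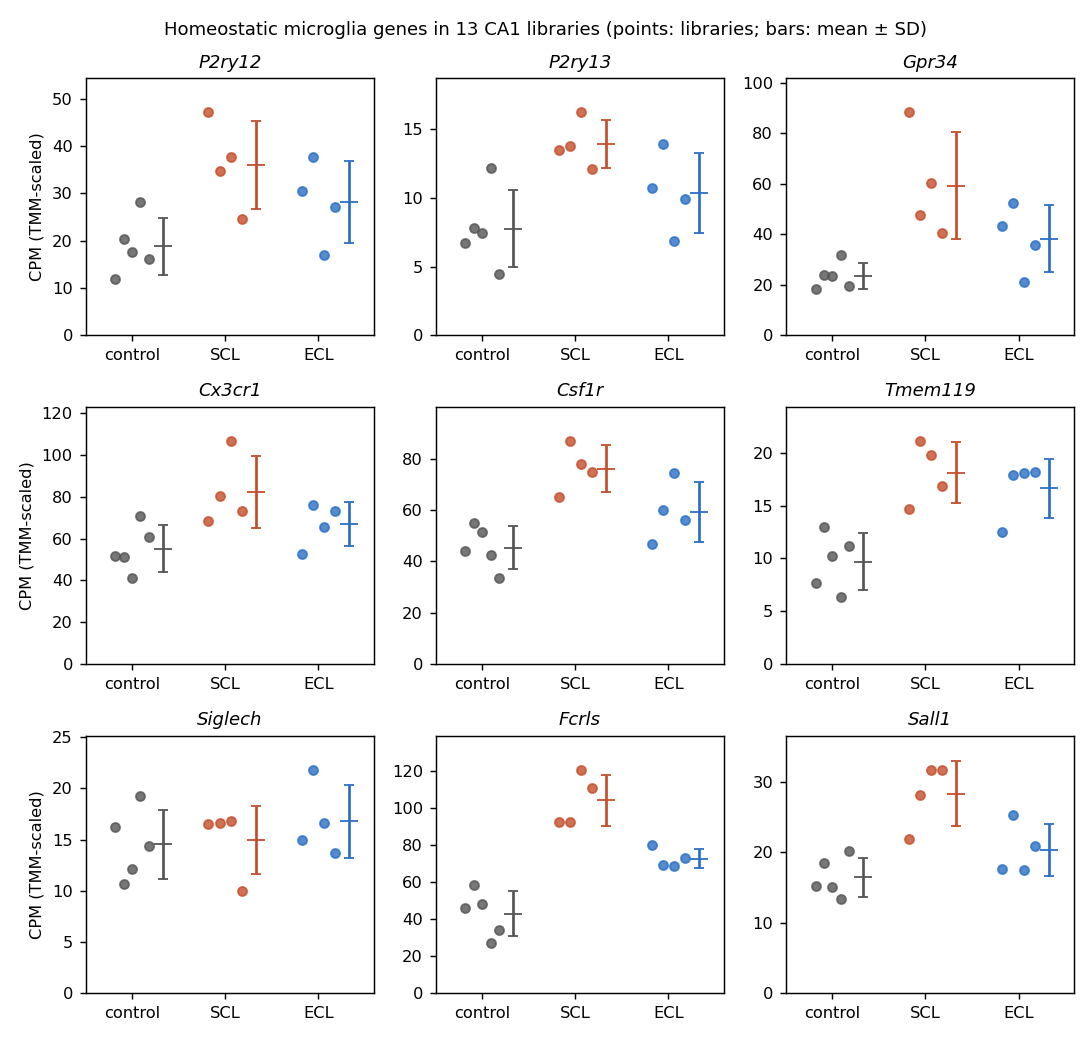
Level of each of the 9 genes in CPM (TMM-scaled, linear axis from 0) in 5 control, 4 SCL and 4 ECL libraries, with 1 point per library in replicate order and the mean ± SD beside the points. For Fcrls both lesion groups lie above the highest control (58.3 CPM), and for Siglech the 3 groups overlap.

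The first comparison asks how the CA1 tissue differed 3 days after SCL. Of the 9 genes 8 rose after SCL and 0 fell, by 1.49-fold (Cx3cr1) to 2.54-fold (Gpr34), and Siglech was not called (edgeR quasi-likelihood test over all genes tested, adjusted p under 0.05). Among all 11438 genes tested, 13.1% were called higher and 24.9% in either direction. The median log2 fold change was 0.85 over the 9 genes and 0.01 over all genes tested, and 8 of the 9 had an unadjusted p under 0.05, as did 38.8% of all genes. The summed level of the 9 genes was 215 to 259 CPM in the controls and 395 to 488 CPM after SCL. Fewer cells of a type and less RNA per cell cannot be told apart in bulk tissue, and the same holds for more of either.

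Among the receptors for nucleotides and lipids, Gpr34 rose most. Its level was 18.3, 23.9, 23.3, 31.8 and 19.5 CPM in control replicates 1 to 5 and 88.4, 47.6, 60.4 and 40.4 CPM in SCL replicates 1 to 4. All SCL libraries lay above all controls, with SCL replicate 1 far above the other 3. The log2 fold change was 1.34 ± 0.23 (SE; adjusted p = 0.00280, edgeR). P2ry12 stood at 11.9, 20.4, 17.6, 28.1 and 16.2 CPM in the controls and at 47.2, 34.8, 37.6 and 24.6 CPM after SCL. Only SCL replicate 4 lay below the highest control, replicate 4. Its log2 fold change was 0.94 ± 0.24 (adjusted p = 0.0146, edgeR). P2ry13, its neighbour, was at 6.73, 7.84, 7.48, 12.2 and 4.48 CPM in the controls and at 13.5, 13.8, 16.3 and 12.1 CPM after SCL, so that the groups overlapped by a narrow margin at control replicate 4. It rose by 0.85 ± 0.26 on the log2 scale (adjusted p = 0.0330, edgeR), and its call did not survive leaving out control replicates 1, 2, 3 or 5 or SCL replicates 1, 2 or 3 (adjusted p from 0.0529 to 0.0936) and with a term for sex (0.0504).

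Both cytokine and chemokine receptors rose. Csf1r was at 44.2, 55.1, 51.4, 42.5 and 33.6 CPM in the controls and at 65.1, 86.9, 77.7 and 74.8 CPM after SCL. Every SCL library was above every control, and the log2 fold change was 0.74 ± 0.16 (adjusted p = 0.00708, edgeR). Cx3cr1 was at 51.5, 51.5, 41.0, 71.0 and 61.0 CPM in the controls and at 68.6, 80.5, 107 and 73.5 CPM after SCL. SCL replicate 1 lay below control replicate 4, and SCL replicate 3 was the highest library. Its log2 fold change of 0.58 ± 0.17 (adjusted p = 0.0277, edgeR) was the smallest of the 8. That call was lost without control replicates 1, 2 or 3 or SCL replicates 2 or 3 (adjusted p from 0.0538 to 0.102).

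The 3 surface proteins did not move alike. Fcrls was at 46.3, 58.3, 48.1, 27.1 and 34.4 CPM in the controls and at 92.5, 92.8, 121 and 111 CPM after SCL. The groups lay far apart, and the log2 fold change was 1.28 ± 0.20 (adjusted p = 0.00213, edgeR). Tmem119 was at 7.66, 13, 10.2, 6.31 and 11.2 CPM in the controls and at 14.7, 21.1, 19.8 and 16.8 CPM after SCL, again without overlap. Its log2 fold change was 0.90 ± 0.24 (adjusted p = 0.0160, edgeR), and without SCL replicate 2 the adjusted p was 0.0550. Siglech was at 16.2, 10.6, 12.1, 19.3 and 14.3 CPM in the controls and at 16.6, 16.6, 16.8 and 9.99 CPM after SCL. The SCL libraries lay within the control range except replicate 4, which was lowest of all 13. The log2 fold change of Siglech was 0.05, with a 95% interval from -0.43 to 0.54 (adjusted p = 0.888, edgeR), so that a rise as large as the median of the 9 genes lies outside the interval.

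Sall1, the transcription factor among the 9, was at 15.3, 18.5, 15.1, 13.3 and 20.1 CPM in the controls and at 21.8, 28.1, 31.7 and 31.7 CPM after SCL. All SCL libraries were above all controls, with SCL replicate 1 the nearest to them. It rose by 0.78 ± 0.18 on the log2 scale (adjusted p = 0.00915, edgeR). Groups without overlap were thus seen for 5 of the 9 genes (Gpr34, Csf1r, Fcrls, Tmem119 and Sall1), while 12.1% of all genes tested lay wholly above the controls. Csf1r, Gpr34, Fcrls and Sall1 were called under all 19 alternatives tried, and without SCL replicate 2, the most deeply sequenced library, 5 of the 9 genes were called.

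After ECL, 3 of the 9 genes rose and 0 fell: Fcrls by 1.71-fold, Tmem119 by 1.73-fold and Gpr34 by 1.64-fold. Of all 11212 genes tested, 15.2% were called higher and 27.8% in either direction. The median log2 fold change of the 9 genes was 0.43, against -0.01 over all genes, and their summed level was 306 to 375 CPM. All 9 had a log2 fold change above 0, and 5 had an unadjusted p under 0.05, as did 40.3% of all genes. The controls are those of the SCL comparison.

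Fcrls was at 80.0, 69.4, 68.9 and 73.0 CPM in ECL replicates 1 to 4, a narrow range above all 5 controls. It was the only gene of the 9 whose groups did not overlap after ECL, where 12.8% of all genes tested lay wholly above the controls. Its log2 fold change was 0.77 ± 0.20 (adjusted p = 0.0104, edgeR), and it was called under all 19 alternatives. Tmem119 was at 12.5, 17.9, 18.0 and 18.2 CPM, with replicate 1 alone below the highest control. Its log2 fold change was 0.79 ± 0.24 (adjusted p = 0.0270, edgeR). The call was lost without control replicate 1 or ECL replicates 2, 3 or 4 (adjusted p from 0.0580 to 0.0775) and with a term for sex (0.0828). Gpr34 was at 43.3, 52.4, 21 and 35.7 CPM. ECL replicate 3 lay inside the control range and the other 3 above it. The log2 fold change of 0.71 ± 0.24 (adjusted p = 0.0398, edgeR) was no longer called without control replicates 1, 2, 3 or 5 or ECL replicates 1, 2 or 4 (adjusted p from 0.0573 to 0.148). Leaving out control replicate 1, ECL replicate 2 or ECL replicate 4 left 1 of the 9 genes called.

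The other 6 genes were not called after ECL. P2ry12 was at 30.6, 37.8, 17.1 and 27.1 CPM. Replicates 1 and 2 lay above all controls and replicate 3 among them. Its log2 fold change was 0.59 (95% interval 0.03 to 1.14; adjusted p = 0.106, edgeR), and the adjusted p was 0.0324 without control replicate 4 and 0.0353 without ECL replicate 3. P2ry13 was at 10.7, 14, 6.86 and 9.90 CPM, with a log2 fold change of 0.43 (-0.20 to 1.06). Csf1r was at 46.6, 60.1, 74.3 and 55.9 CPM, with a log2 fold change of 0.39 (0.01 to 0.77; adjusted p = 0.114, edgeR). For P2ry13 only replicate 2 lay above every control, and for Csf1r replicates 2, 3 and 4 did. Sall1 was at 17.6, 25.3, 17.5 and 20.8 CPM and its log2 fold change was 0.31 (-0.11 to 0.73). Cx3cr1 was at 52.5, 76.3, 65.5 and 73.1 CPM and its log2 fold change was 0.28 (-0.09 to 0.66). Siglech was at 15.0, 21.8, 16.6 and 13.7 CPM, within the control range except replicate 2, with a log2 fold change of 0.22 (-0.26 to 0.69). No difference and a rise as large as that of Gpr34 both lie inside the intervals of P2ry13 and Sall1.

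**Figure D2:**
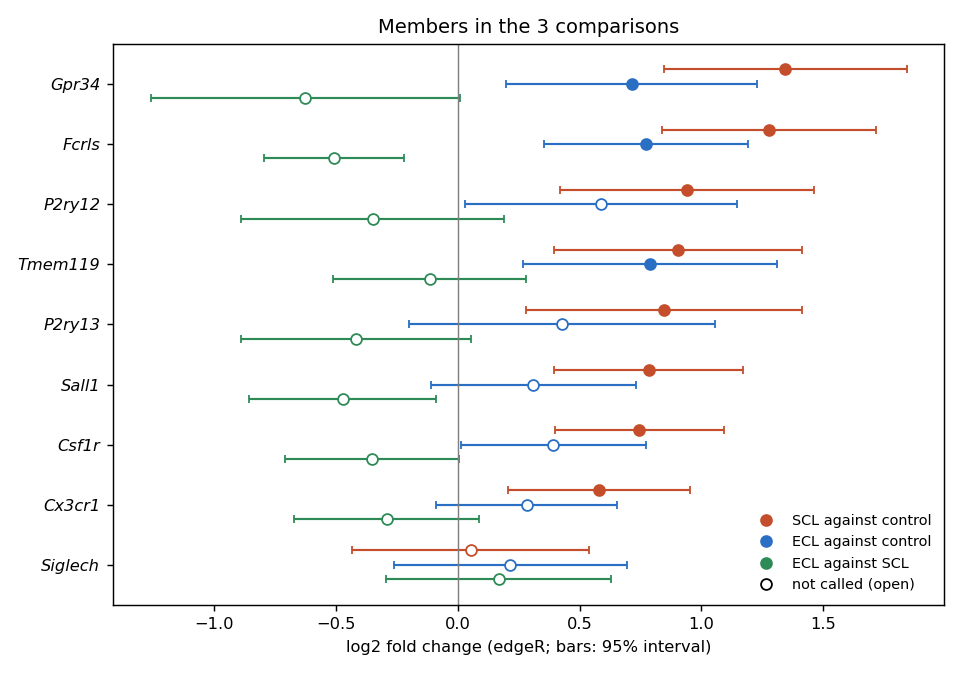
Log2 fold change (x axis) of the 9 genes (y axis) after SCL (orange) and ECL (blue) against control and of ECL against SCL (green), with 95% intervals from edgeR. Filled points are called at an adjusted p under 0.05: 8 genes after SCL, 3 after ECL and 0 between the lesions, where 8 of 9 points lie below 0.

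ECL and SCL were compared directly, without the controls, to ask whether the lesions differed. None of the 9 genes was called, nor was any of the 12232 genes tested (edgeR, 0 called, 0% in either direction), although 897 genes, or 7.33%, had an unadjusted p under 0.05 and DESeq2 called 62. Of the 9 genes 8 were lower after ECL, with a median log2 fold change of -0.35, and 2 had an unadjusted p under 0.05. Fcrls was lower after ECL by 0.51 on the log2 scale (95% interval -0.80 to -0.22; adjusted p = 0.460 with edgeR and 0.0526 with DESeq2). The 4 ECL libraries, at 68.9 to 80.0 CPM, lay below the 4 SCL libraries, at 92.5 to 121 CPM, as was so for 2.27% of all genes tested. Sall1 had a log2 difference of -0.47 (-0.86 to -0.09; adjusted p = 0.619, edgeR). Gpr34 had the largest difference, -0.63, with an interval of -1.26 to 0.01. Tmem119, at -0.12 (-0.51 to 0.28), and Siglech, at 0.17 (-0.29 to 0.63), were the nearest to no difference. Hence the larger number of genes called after SCL is not shown to be a difference between the lesions.

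Other genes of microglia and myeloid cells were higher too. Of 18 core genes, used here as markers of these cells, 17 passed the minimum against the controls, and 13 rose after SCL and 10 after ECL, with 0 falling. Their median log2 fold change was 1.12 after SCL and 0.84 after ECL, larger than that of the 9 homeostatic genes in both. The core genes did not move alike. In the SCL comparison Ptprc was lowest (-0.12) and C1qa highest (2.68), and the same genes bounded the ECL comparison (-0.58 and 2.97). Whether the core list is independent of the state of the cells was not tested. C1qb and C1qc, which encode chains of complement C1q, rose by 1.36 ± 0.25 and 1.12 ± 0.18 after SCL and by 1.53 ± 0.14 and 1.06 ± 0.13 after ECL on the log2 scale. Aif1, which encodes the microglia marker Iba1, rose by 1.18 ± 0.17 after SCL and 0.91 ± 0.20 after ECL. The summed level of the core list was 1121 to 1364 CPM in the controls, 2056 to 3882 CPM after SCL and 2027 to 3027 CPM after ECL. Of 22 tested genes of activated microglia 8 rose after SCL and 9 after ECL, with median log2 fold changes of 0.73 and 0.41. The other 14 and 13 were not called, and the lowest log2 fold changes on the list were -0.36 and -0.39. Among the genes called, Cd9, a tetraspanin, rose by 1.39 ± 0.17 and 1.41 ± 0.21. Ctsb, the lysosomal protease cathepsin B, rose by 1.38 ± 0.19 and 1.30 ± 0.18. Which cells carried the transcripts of Cd9 and Ctsb was not tested.

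A second list holds 20 other genes known from homeostatic microglia. Of the 16 tested after SCL 9 rose and 0 fell (median log2 fold change 0.76), and of the 13 tested after ECL 5 rose and 0 fell (0.24). Of the 13 tested in both, 7 rose after SCL. Without SCL replicate 3 the count after SCL was 5. Olfml3, a secreted protein, rose by 1.33 ± 0.18 after SCL and 0.99 ± 0.17 after ECL. Trem2, a lipid receptor on microglia that is also grouped with genes of activated microglia, rose by 1.01 ± 0.15 and 0.82 ± 0.15. Ltc4s, an enzyme of leukotriene synthesis, rose by 1.76 ± 0.38 after SCL and was under the minimum for ECL. Against the controls it passed the minimum only in the SCL comparison, where its level was high. It did so in 6 of the 9 SCL fits that left out a library. Its level was 0.963 to 5.98 CPM in the controls, 9.76 to 13.8 after SCL and 8.02 to 11.3 after ECL. Both lesion groups thus lay above all controls.

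Genes of cell division were called after SCL in 9 of 12 tested and after ECL in 1 of 8 (Cdk1, 2.12 ± 0.58). The numbers tested differ because Ccnb1, Ccnb2, Ube2c and Birc5 passed the minimum only in the SCL comparison, where their level was high, and of the 8 genes tested in both 5 were called after SCL and 1 after ECL. Ccnb2, not tested after ECL, was at 0.602 to 3.64 CPM in the controls and at 6.58 to 13.9 CPM after ECL, without overlap. Ube2c (1.52 to 5.14 and 5.68 to 14.9 CPM) and Birc5 (1.18 to 6.53 and 8.08 to 12.2 CPM) did not overlap either. Ccnb2, a mitotic cyclin, rose by 3.26 ± 0.40 after SCL, and Ube2c, which acts in exit from mitosis, by 2.57 ± 0.35. The summed level of this list was 158 to 260 CPM in the controls, 324 to 398 CPM after SCL and 172 to 291 CPM after ECL. Which cells carried these transcripts cannot be told from bulk tissue, and their part in the levels of the 9 genes was not tested.

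Several of the 9 genes are also used by macrophages at the brain's borders and by blood monocytes. Of 14 marker genes of such cells 11 were under the minimum. The 3 tested, Pf4, F13a1 and Stab1, rose after SCL (log2 fold changes 1.34 ± 0.44, 1.23 ± 0.18 and 0.64 ± 0.16), and F13a1 rose after ECL (0.86 ± 0.19). The call on Pf4 was lost without control replicates 2, 3, 4 or 5 or SCL replicates 3 or 4 (adjusted p from 0.0634 to 0.143), and without control replicate 1 Pf4 was called after ECL too (0.00884). The summed level of the 14 was 39.4 to 59.0 CPM in the controls, 76.5 to 109 CPM after SCL and 55.9 to 82.9 CPM after ECL. The defining markers were low: Mrc1 was at 2.30 to 4.95 CPM in the controls, 1.49 to 3.06 after SCL and 1.79 to 3.10 after ECL. Cd163 was at most 1.39 CPM, Lyve1 at most 2.90 CPM and the monocyte gene Ccr2 at most 3.17 CPM, each with its highest value in a control. S100a9, a gene of neutrophils and monocytes, was near 0 in every group. It was at most 0.160 CPM in the controls and 0.232 CPM after SCL, and had 0 counts in all 4 ECL libraries. The part of such cells in the levels of the 9 genes was not tested.

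The ligands and enzymes that act on these receptors did not move as one. Of 11 listed 7 were tested, and 1 rose and 1 fell after each lesion. Over all genes tested the share called in either direction was 24.9% after SCL and 27.8% after ECL. Cx3cl1, which encodes fractalkine, had log2 fold changes of -0.30 (adjusted p = 0.184, edgeR) after SCL and -0.43 (0.132) after ECL. Its level was 120 to 171 CPM in the controls, 91.8 to 142 CPM after SCL and 76.1 to 160.0 CPM after ECL. Adam10, which encodes a protease that sheds fractalkine from neurons, fell by 1.12 ± 0.27 on the log2 scale after SCL and by 1.60 ± 0.27 after ECL. Csf1, a ligand of CSF1R, was not called either (log2 fold change 0.52 and adjusted p = 0.195 after SCL, 0.37 and 0.267 after ECL, edgeR), and Il34, the other ligand, was under the minimum at 2.67 to 7.15 CPM over all libraries. Entpd1, the ectoenzyme CD39 that degrades extracellular ATP and ADP, had log2 fold changes of 0.21 and 0.09 and was not called. Abhd12, which encodes a lipase that degrades lysophosphatidylserine, rose by 0.41 ± 0.14 after SCL and 0.55 ± 0.15 after ECL. Its call after SCL was lost whichever of the 9 libraries was left out (adjusted p from 0.0501 to 0.121). Without ECL replicate 3 Cx3cl1 was called lower after ECL (-0.66, adjusted p = 0.0186, edgeR).

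Of the transcription factors and signalling genes tied to microglial identity other than Sall1, 10 of 14 were tested, 0 rose, 1 fell after SCL and 4 fell after ECL. Of all genes tested, 24.9% were called in either direction after SCL and 27.8% after ECL, and 13.1% and 15.2% were called higher. The counts of the list were not tested against these shares. Runx1 fell by 0.76 ± 0.26 after SCL and by 0.78 ± 0.24 after ECL on the log2 scale. Maf and Mef2a fell after ECL, by 0.62 ± 0.18 and 0.41 ± 0.14. The call on Runx1 was lost without 7 of 9 libraries after SCL (control replicates 1, 3 or 4 or any SCL replicate, adjusted p from 0.0505 to 0.123) and without 5 of 9 after ECL (control replicates 1 or 3 or ECL replicates 1, 2 or 4, from 0.0564 to 0.0825). That on Mef2a was lost without control replicates 4 or 5 or ECL replicates 1, 3 or 4 (from 0.0544 to 0.114) and that on Maf without ECL replicate 1 (0.0565). Without SCL replicate 4 Mef2a was called lower after SCL (0.0394). Median log2 fold changes were -0.18 after SCL and -0.17 after ECL, so the list lay on the other side of 0 from Sall1. Several of these genes, Mef2a and Maf among them, are also expressed by neurons and other cells, and Spi1, which encodes PU.1, was under the minimum at 1.18 to 7.14 CPM.

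The receptors that neighbour P2ry12 and P2ry13 on the chromosome were not called. P2ry14, a receptor for UDP-glucose inside the same host gene, had log2 fold changes of -0.12 ± 0.33 after SCL and 0.01 ± 0.31 after ECL. Med12l, the host gene itself, had -0.23 ± 0.30 and -0.20 ± 0.28. Gpr171 was under the minimum against the controls, at 2.57 to 9.02 CPM. Of the other nucleotide receptors P2rx4, an ATP-gated channel of microglia, rose after SCL (0.99 ± 0.23, adjusted p = 0.0103, edgeR) and had an adjusted p of 0.0541 after ECL, or 0.0415 without control replicate 2.

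**Figure D3:**
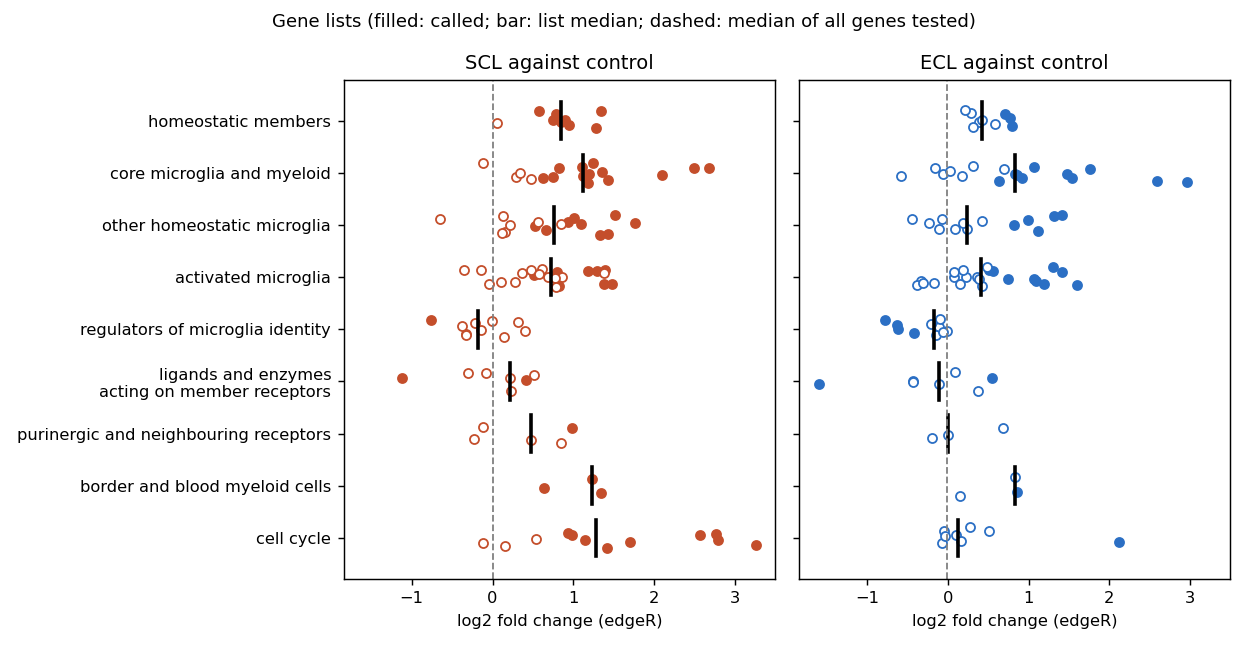
Log2 fold changes from edgeR (x axis) after SCL and ECL for 9 gene lists (y axis), with 1 point per gene tested, filled where called. Black bars are list medians (0.85 and 0.43 for the 9 homeostatic genes, 1.12 and 0.84 for the core list) and dashed lines the median of all genes tested (0.01 and -0.01).

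The median of the core list lay above that of the 9 genes, a difference that was not tested and that single genes of both lists went against. Each gene was therefore also set against the core list, whose geometric mean over 17 genes took the place of the library size. On that scale the median of all genes tested was -1.09 after SCL and -0.90 after ECL. A total of 83.4% of all genes were called lower after SCL and 73.7% after ECL, against 2 and 4 of the 9. Siglech was lower relative to the core list after SCL, by 1.07 ± 0.28 on the log2 scale (adjusted p = 0.00110, edgeR), and so was Cx3cr1, by 0.57 ± 0.23 (0.0249). The call on Cx3cr1 was lost without control replicates 4 or 5 or SCL replicate 1 (adjusted p from 0.0622 to 0.0873). After ECL, Siglech (-0.70 ± 0.26), Cx3cr1 (-0.64 ± 0.22), Sall1 (-0.62 ± 0.24) and Csf1r (-0.49 ± 0.22) were lower relative to the core list. Without ECL replicate 4 1 gene was called, Cx3cr1. The call on Csf1r was also lost without control replicates 2 or 3 or ECL replicates 1 or 2, that on Siglech without control replicate 4 and that on Sall1 without control replicate 5 (adjusted p from 0.0536 to 0.136, ECL replicate 4 included). Gpr34 and Fcrls were at 0.23 ± 0.26 and 0.19 ± 0.23 relative to the list after SCL and were not called. P2ry12, P2ry13 and Tmem119 were not called on this scale after either lesion, and between ECL and SCL 0 of the 9 genes were called, as of all genes.

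These relative levels turned with the choice of reference genes. Ptprc, Itgam, Itgb2, Laptm5 and Cd53, the 5 tested genes of one alternative reference, changed by a median of 0.63 (log2) between controls and SCL and 0.03 between controls and ECL. The other, a set of 6 genes with Aif1, Ctss, C1qa, C1qb and C1qc among them, had 1.27 and 1.30. Against the first, Gpr34 (0.75) and Fcrls (0.66) were called higher after SCL, with 52.2% of all genes called in either direction. After ECL 0 of the 9 were called, with 18.7% of all genes called. Against the second, 4 of the 9 were called lower after SCL and all 9 after ECL, where 93.1% and 93.5% of all genes were called. A change of reference shifts all genes together, so it bears on the calls and hardly on the order of the genes, in which Siglech was lowest each time. Whether the 9 genes were lower per microglial cell cannot be told from these references.

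**Figure D4:**
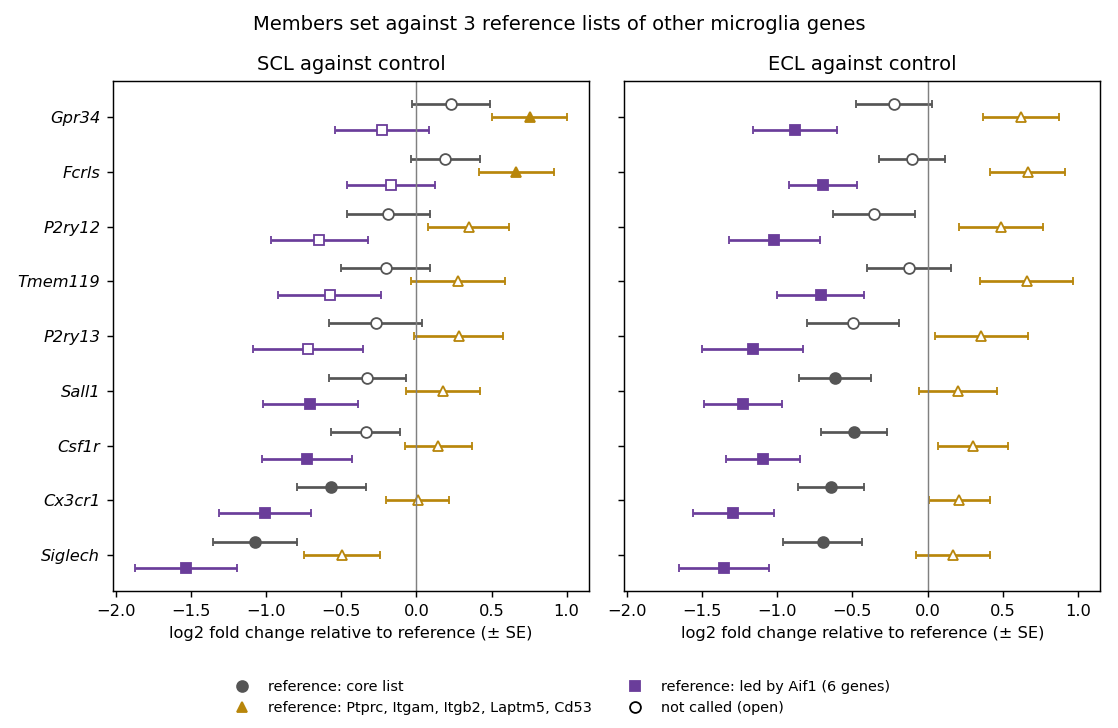
Log2 fold change relative to a reference list (x axis, ± SE) for the 9 genes (y axis) after SCL and ECL, with the core list (grey circles), Ptprc, Itgam, Itgb2, Laptm5 and Cd53 (triangles) or the reference led by Aif1 (squares). Filled symbols are called. After ECL all 9 squares lie below 0 and all 9 triangles above 0.

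The 9 genes did not vary as one between cultures of a group. Taking each gene's log2 CPM less its group mean over the 13 libraries, P2ry12 went with Gpr34 (Pearson's r = 0.94, n = 13 libraries) and with P2ry13 (0.76), and P2ry13 with Gpr34 (0.72). Tmem119 went with Sall1 (0.67). Siglech ran opposite to Fcrls (-0.61), and P2ry12 against Csf1r gave -0.25. Any pair of genes was read in the same libraries, which differ in depth and base composition, so the correlations are given as a description. Gpr34 and P2ry12 have transcripts of low GC content (36.8% and 39.4%, lower than in all but 0.985% and 3.80% of the genes compared), and Tmem119 one of high GC content (59.5%). A library's trend, the median deviation of the fifth of genes poorest in GC less that of the fifth richest, ran from -0.46 (ECL replicate 3) to 0.55 (control replicate 4). It went with the deviations of Gpr34 (r = 0.67), P2ry12 (0.62), Siglech (0.61) and P2ry13 (0.49), and against those of Csf1r (-0.70), Fcrls (-0.65) and Tmem119 (-0.63). Taken over all libraries, the trend was -0.28 to 0.69 in the controls, -0.19 to 0.19 after SCL and -0.56 to 0.24 after ECL.

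With an offset for GC content and transcript length, chosen after seeing the data, 8 of the 9 genes were called after SCL and 4 after ECL. Among all genes tested, 2715 of 11438 were called after SCL and 3248 of 11212 after ECL with this offset. After ECL, P2ry12 (0.72, adjusted p = 0.0263, edgeR) and Cx3cr1 (0.46, 0.0441) were then called beside Fcrls and Gpr34, and Tmem119 was not (0.54, 0.0716). Of the other genes named, the offset ended the calls on Abhd12 and Runx1 after both lesions, on Pf4 after SCL and on Aif1, Maf and Mef2a after ECL, and Cx3cl1 was called lower after SCL (-0.66, 0.0112) and ECL (-0.88, 0.00254). The genes most like the mean of the 9 across libraries by the same deviations, among 11097 others, were Svbp (r = 0.89), Shisa9 (0.88), Gm6997 (0.88), Ppil4 (0.87), Snhg5 (0.85), Fkbp7 (0.85), Mcts2 (0.85), Gm4876 (0.84), Car2 (0.84) and 1300002E11Rik (0.83). Of these 10 Svbp, Gm6997, Mcts2 and Car2 rose after SCL, and none belongs to the microglia lists. High values of r can arise by chance when 11097 genes are searched in 13 libraries, and the 9 genes did not vary as one. The ranking is therefore a description and was not tested.

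**Figure D5:**
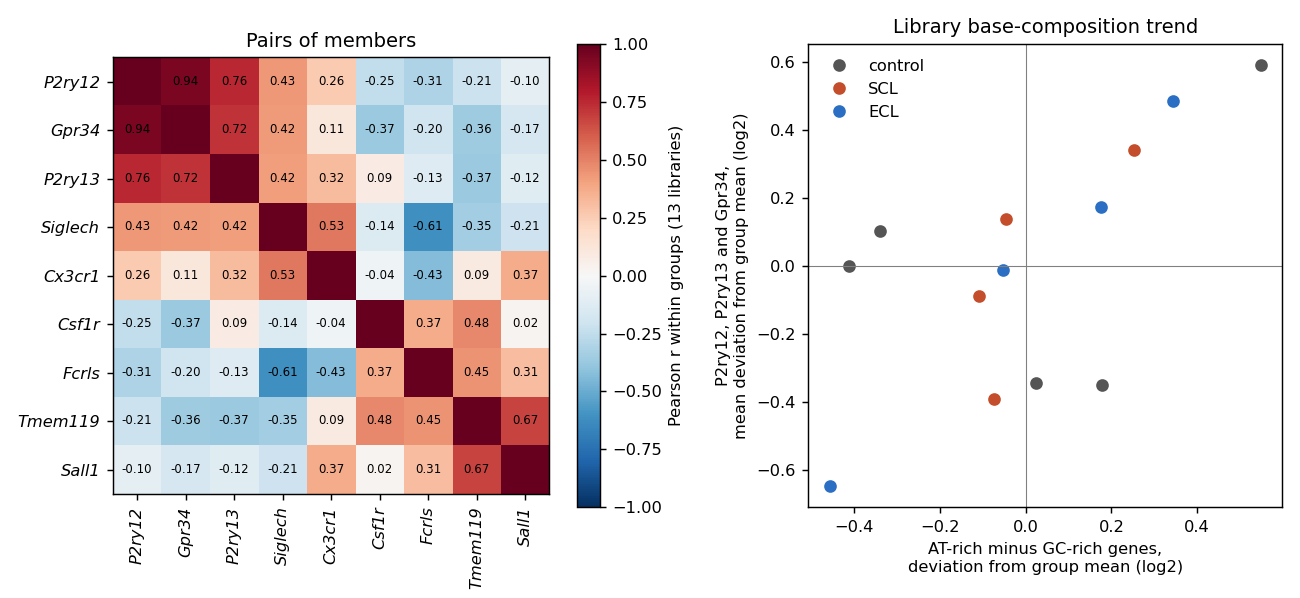
Left, Pearson's r between pairs of the 9 genes over 13 libraries, each gene taken as log2 CPM less its group mean (colour scale from -1 to 1). Right, the mean deviation of P2ry12, P2ry13 and Gpr34 (y axis, log2) against each library's difference between AT-rich and GC-rich genes (x axis, log2): control replicate 4 (0.55 and 0.59) and ECL replicate 3 (-0.46 and -0.65) are the outermost libraries.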

How the data were processed

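The authors trimmed reads with cutadapt 3.5, mapped them with STAR 2.7.8a to mm10 (GRCm38) and counted them per GENCODE M25 gene with featureCounts 2.0.1, ignoring strand. The files hold these deposited raw counts for 55291 symbols and 14371152 to 56786613 counts per library. Of counts from 1 to 20, 63.0% to 74.3% were even in each library, so both mates of a read pair seem to have been counted. Gene models are from GENCODE M21 on the same build, which held 53292 symbols and all 9 genes.

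Each comparison had a fit of its own in edgeR 4.0.16 (R 4.3.3; glmQLFit and glmQLFTest, two-sided, Benjamini-Hochberg over all genes tested, threshold 0.05) of genes with a mean normalised count of at least 150, with TMM factors over those genes. SE is the size of the log2 fold change over the square root of F. For relative levels the geometric mean of core genes past the minimum replaced the library size and was treated as known. Deviations used log2(CPM + 0.5). The code was tested on simulated data.

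The 9 genes, the lists and the alternatives were chosen with earlier results of these data known. The 9 genes were named, with at most 5 called genes per comparison from the core, second homeostatic, regulator and ligand lists, at most 2 from other lists, the receptors beside P2ry12 and P2ry13, and the 10 genes most like the 9. Pf4, S100a9, Ccnb1, Birc5, Calb1, Prox1, the defining myeloid markers, and the ligands, Entpd1 and Spi1 that were not called or not tested were named after their values were seen, and some genes of the lists are not reported here. Alternatives were DESeq2 1.42.0, other scalings and count minimums, 1 fit of all libraries, halved counts, a sex term, the replicate number as a block, other reference genes and leaving out each library. The GC and length offset and the recomputed counts over all genes and lists were added after seeing the data. The labels call the samples biological replicates, p-values measure the spread between these cultures, no library repeated another, and none was left out.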

Additional observations from a re-analysis of the deposited data

Results flagged for a closer look

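In 2 of the 30 groups of gene levels examined, 9 genes and their sum in 3 groups of libraries, 1 library stood apart from the others of its group by a wide gap. Tmem119 was at 12.5 CPM in ECL replicate 1, while the other 3 ECL libraries lay within 17.9 to 18.2 CPM. Siglech was at 9.99 CPM in SCL replicate 4, while the other 3 SCL libraries lay within 16.6 to 16.8 CPM. Chance flags about 1 in 20 such groups, or 1.5 of the 30 here. Without ECL replicate 1 Tmem119 was still called after ECL, and without SCL replicate 4 the log2 fold change of Siglech was 0.20 and not called.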

How the results depend on the processing

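Each of the 9 genes stayed above 0 under all 19 alternatives after SCL and after ECL, except Siglech after SCL, which did under 16 and was never called. The count of 8 after SCL was 5 to 8 without single libraries and 5 with the replicate number as a block. The count of 3 after ECL was 1 to 4 without single libraries, 5 with TMM over all symbols or no filter on low counts, and 2 with the replicate block. Same-numbered samples correlated at -0.17 to 0.54 (median 0.02), and the numbers in the table headings differ from those of the titles in 10 of 13 libraries. Pairs with the same heading number correlated at -0.41 to 0.54, with 6 of 20 over 0.1, against 12 of 36 of the other pairs. These correlations did not show a pairing by either numbering, and they cannot exclude one. The highest, 0.54 between ECL replicate 1 and SCL replicate 1, was of a pair alike in title number, heading number and sex. The block uses the title numbers. TMM over all symbols moved the median of all genes to 0.21 after SCL and 0.18 after ECL. Counts over all genes were 5390 without a filter and 1679 (without SCL replicate 3) to 2797 without single libraries after SCL. After ECL they were 8034 without a filter and 4854 with a minimum of 10. Between ECL and SCL they were 62 with DESeq2, 217 without a filter, 1 in a single fit, 1 with a sex term and 0 to 54 without single libraries (54 without SCL replicate 3, 2 without ECL replicate 4). The second homeostatic list gave 5 to 9 calls after SCL without single libraries.

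Relative to core genes, the count after SCL was 1 with the GC and length offset, 1 with the replicate block, 1 to 2 without single libraries and 4 with the reference led by Aif1. After ECL it was 9 with that reference, 2 with the replicate block and 1 to 4 without single libraries. With the reference led by Ptprc, 2 genes were called after SCL but higher, and 0 were called after ECL. Between ECL and SCL 1 was called with it, Siglech, higher after ECL (0.62). Of all genes tested, 52.2%, 18.7% and 43.3% were called with that reference in these comparisons, in the same order. Against that reference Cx3cr1 turned to 0.0080 after SCL, and Cx3cr1, Csf1r, Siglech and Sall1 to 0.21, 0.30, 0.17 and 0.20 after ECL. The cause of these shifts was not tested, beyond the smaller changes of those reference genes themselves. P2ry13, which had 68 counts in 1 library, was called after SCL under 10 of the 19 alternatives.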

Other observations

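Markers of other cell types gave mixed differences. Of 8 astrocyte genes 3 rose after SCL, and 2 rose and 1 fell after ECL; Gfap, the intermediate filament of astrocytes, rose by 0.85 ± 0.14 and 0.73 ± 0.14 on the log2 scale. Of 9 genes of the oligodendrocyte lineage 2 rose after each lesion, Mbp and Mog, both myelin proteins, with Mog at 1.24 ± 0.17 and 1.32 ± 0.19. Of 8 neuronal genes 2 fell after SCL and 4 after ECL, and Nefl, a neurofilament chain, fell by 0.54 ± 0.12 and 0.43 ± 0.14. Of 6 CA1 genes 1 fell after SCL (Pou3f1, 0.82 ± 0.17) and 0 were called after ECL. Of 3 tested endothelial and mural genes 1 fell after each lesion (Flt1, 0.91 ± 0.19 and 0.85 ± 0.21). None of the 2 tested CA3 and 2 tested dentate granule cell genes was called after either lesion. Over all genes tested, 13.1% were called higher and 24.9% in either direction after SCL, and 15.2% and 27.8% after ECL. The counts of these lists were not tested against those shares.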
